A study of Homo sapiens with 15 samples.

Results

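BAQ12 and BAQ13 are bisaminoquinoline (BAQ) derivatives that join the cationic head of the lysosomal autophagy inhibitor Lys05 to a hydrophobic tail, and both assemble into nanoparticles (NPs) in water. Their structures differ by a methylene unit. To find where the transcriptional responses to these closely related NPs differed, the 3 libraries whose labels give the agent BAQ13 were compared with the 3 libraries labelled BAQ12, which together are 6 of the 15 libraries in the series. All were made from MIA PaCa-2, an established human pancreatic carcinoma line, after 24 h with 5 µM of the compound. Another 9 libraries, in groups of 3 (vehicle, Lys05, and BAQ12O, an agent known here from its label alone), entered the same fit and so share its estimate of the spread. As the labels do not say that replicates came from separate cultures, the p-values measure the spread between these libraries, which may be technical.

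Cells make cholesterol from acetyl-CoA through the mevalonate pathway. The transcription factor SREBP2 is held in the endoplasmic reticulum by INSIG proteins while sterol is plentiful, and is released to switch on the genes of this pathway, and of LDL uptake, when sterol there runs low. Its relative SREBP1 drives fatty acid synthesis. Cholesterol taken up as LDL is freed inside lysosomes and leaves them through NPC1 and NPC2, and lysosomes also complete autophagy, in which receptors such as p62 (SQSTM1) carry cargo to degradation.

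Between 1754599 and 2431874 reads were counted on genes in the BAQ12 libraries (median 2245367), and between 2285995 and 2497422 in the BAQ13 libraries (median 2296978). Values below are normalised read counts, which are the reads of a gene scaled by the size factor of its library, and 3 reads correspond to 2.49 to 4.14 normalised counts, depending on the library. Of the 60107 genes listed, 10495 passed a filter on low counts and were tested with limma on log2(normalised count + 1). Differences are given on this log2 scale, as BAQ13 minus BAQ12, and a gene is said to pass when its adjusted p is under 0.05. The labels of the line were checked first: CDKN2A and MTAP, which MIA PaCa-2 is known to have lost, had 0 reads in every library. Of the 10 mesenchymal markers, VIM had 9198 to 10781 normalised counts, ZEB1 107 to 185 and AXL 64.6 to 94.4. The others were low: SNAI1 reached 5.50, and 6 had at most 3 reads in each library, 2 of them with 0 reads throughout. Of the epithelial markers, the keratins KRT18, KRT19 and KRT8 had 634 to 969.7, 429 to 572 and 175 to 349.5 and CLDN4 had 66.7 to 123, while EPCAM and KRT7 had at most 1.38 and CDH1 at most 6.28, the latter in BAQ12 replicate 3. Of the 10 pancreatic acinar markers found, 8 had 0 reads in every library, and of the 10 leukocyte markers 7 had at most 3 reads in each library, 3 of them with 0 reads throughout, and CD14, CD4 and PTPRC reached 9.65, 4.67 and 5.72 normalised counts.

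One library stood apart from its group. Over the genes tested, the root mean square log2 difference was 0.36 between BAQ12 replicates 1 and 2 and 0.37 to 0.49 among the BAQ13 libraries, but 0.67 to 0.72 between BAQ12 replicate 3 and the other two of its group. The library nearest to BAQ12 replicate 3 among these 6 was BAQ13 replicate 1, at 0.49. BAQ12 replicate 3 lay at least 2-fold above all 14 other libraries in 5 genes and at least 2-fold below them in 107 genes, where the other libraries had 0 genes above and 0 to 13 below. The genes furthest outside were PIDD1, at 35.2 normalised counts against 10.1 and 9.35 in BAQ12 replicates 1 and 2, and ARSA, the lysosomal arylsulfatase A, at 60.3 against 12.8 and 11.9. In the other direction ANKRD44, BTBD9 and ARG2 had 0 reads in this library and 8.25 to 11.9 normalised counts in replicates 1 and 2. Its deviations from the mean of the other libraries of its group followed transcript GC content (Spearman's rho 0.30 over 10449 genes, a description across genes), and those of BAQ13 replicate 1 did so in the same direction (0.22). BAQ13 replicates 2 and 3 had 0.04 and -0.26, and BAQ12 replicates 1 and 2 had -0.24 and -0.22. Such deviations sum to 0 within a group, so the signs of the remaining libraries are partly fixed by these. Across the 10495 genes the deviations of BAQ12 replicate 3 and BAQ13 replicate 1 had a Pearson correlation of 0.57. With BAQ13 replicates 2 and 3 the correlations of BAQ12 replicate 3 were -0.17 and -0.49. Counts of passing genes are therefore given with all 15 libraries and without BAQ12 replicate 3. Where a gene has a single difference, it is from the fit with all libraries unless stated. For genes that passed only without BAQ12 replicate 3, it is from that second fit. The 2 fits can differ in size, as for CTSC (-0.49 and -0.59) and FASN (0.77 and 0.85). The part that library quality plays in the difference was not tested.

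**Figure D1:**
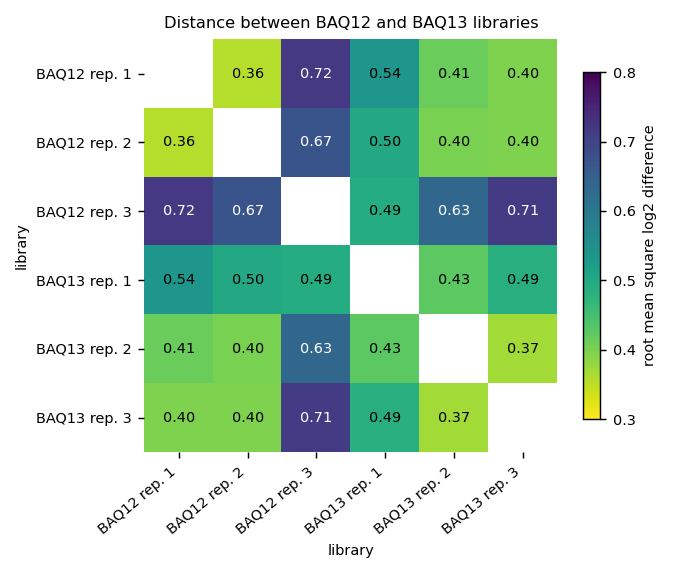
Root mean square log2 difference between each pair of the 6 BAQ12 and BAQ13 libraries over the 10495 genes tested (colour and number; darker is further apart). BAQ12 replicate 3 is 0.67 to 0.72 from its own group and 0.49 from BAQ13 replicate 1.

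With all 15 libraries, 59 genes passed (0.562% of those tested), of which 53 were higher with BAQ13 and 6 were lower (0.505% and 0.0572%). The passing genes were 2-fold or more higher in 18 cases and 2-fold or more lower in 0. Without BAQ12 replicate 3, 332 genes passed (3.16% of those tested), 179 higher and 153 lower, including all 59 of the first fit with the same direction. At the study's own threshold, a fold change of at least 2 with an unadjusted p of at most 0.05, there were 65 genes with all libraries (49 higher, 16 lower) and 107 without that library (66 higher, 41 lower). The 95% interval of the difference lay wholly within a 2-fold change either way for 8948 genes (85.3%) with all libraries and for 8665 (82.6%) without BAQ12 replicate 3, with a median half-width of 0.42 and 0.39. For the remaining genes a 2-fold difference was not excluded at this depth and number of libraries. In the second fit BAQ12 replicate 3 took no part, so its position can be read beside the calls. It lay nearer to BAQ12 replicates 1 and 2 than to BAQ13 in 80 of the 179 genes higher with BAQ13 (44.7%) and in 17 of the 153 genes lower with BAQ13 (11.1%), where the share over all genes tested was 36.8%. When BAQ13 replicate 1 was left out as well, 2 libraries against 2, 239 genes passed, and these included 58 of the 59 and 199 of the 332.

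The clearest difference between the NPs lay in cholesterol synthesis, whose enzymes were higher with BAQ13 than with BAQ12 almost throughout. Of the 20 enzymes listed for the mevalonate pathway and sterol synthesis, all could be tested. With all libraries 13 were higher and 0 lower, where 0.505% of all genes passed as higher, and without BAQ12 replicate 3 there were 17 higher and 0 lower against a background of 1.71%. The median difference over the 20 enzymes was 0.92 and 0.91, respectively, beside a median of 0.00 over all genes tested in each fit. The difference was above 0 in 19 of the 20 enzymes with all libraries and in 20 without BAQ12 replicate 3, where 50.6% and 49.9% of all genes tested were above 0. Fewer cells with a response and a smaller response in every cell cannot be told apart in these bulk libraries.

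HMGCS1, the synthase that commits acetyl-CoA units to the pathway, showed the largest passing difference of all genes in the fit with every library. This gene (ENSG00000112972; chromosome 5, 43289395 to 43313512 in GRCh38) had 183, 152 and 71.6 normalised counts in BAQ12 replicates 1 to 3 and 545, 629.8 and 657 in the BAQ13 libraries, beside 59.8, 56.9 and 55.1 with vehicle. Every BAQ13 library was thus far above every BAQ12 library, and BAQ12 replicate 3 was the lowest of its group and near vehicle. The means were 135 ± 57.3 (SD, n = 3) and 611 ± 58.5 (SD, n = 3), and limma gave a difference of 2.27 (standard error 0.22, adjusted p = 3.33e-05) with all libraries and 1.86 (standard error 0.12, adjusted p = 9.32e-11) without that replicate. The decarboxylase MVD had 54.1, 43.4 and 86.7 with BAQ12 and 181, 157 and 150.0 with BAQ13, a difference of 1.45 (standard error 0.23, adjusted p = 0.00375). Here BAQ12 replicate 3 was the highest of its group, and the difference without it was 1.72.

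The later, sterol-forming steps behaved alike. MSMO1, which removes methyl groups from the sterol ring, had 166, 187 and 178 normalised counts with BAQ12 and 488, 472 and 448 with BAQ13, a difference of 1.40 (standard error 0.14, adjusted p = 4.05e-05). BAQ12 replicate 3 lay between its 2 companions, and the difference without it was 1.41. Squalene epoxidase, SQLE, had 222, 225 and 256 with BAQ12 and 551, 513 and 464 with BAQ13, a difference of 1.12 (standard error 0.10, adjusted p = 5.61e-06). Squalene synthase, FDFT1, had 459, 476 and 364 with BAQ12 and 803, 887 and 878 with BAQ13 (difference 0.99, standard error 0.12, adjusted p = 0.000223). The groups did not overlap in any of these 3 genes, where 6.02% of all genes tested had every BAQ13 library above every BAQ12 library. Other members that passed with all libraries were ACAT2 (0.79), MVK (1.04), IDI1 (1.49), EBP (0.82), NSDHL (0.89), DHCR7 (1.13) and TM7SF2 (0.68), and IDI1 lost its call without BAQ13 replicate 2 or 3 (adjusted p = 0.0692 to 0.0952 by limma).

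FDPS, LSS and HSD17B7 passed only without BAQ12 replicate 3. FDPS, the farnesyl diphosphate synthase, had 662, 640.1 and 1041 normalised counts with BAQ12 and 1312, 1155 and 1016 with BAQ13. Its replicate 3 lay inside the range of the BAQ13 libraries, and the difference was 0.60 (adjusted p = 0.0806) with all libraries and 0.83 (adjusted p = 1.95e-06 by limma) without it. LSS and HSD17B7 had differences of 0.89 and 0.95 in the latter fit. A further 3 members did not pass in either fit: PMVK, with overlapping groups and a difference of -0.08 (95% interval -0.52 to 0.36), CYP51A1, at most 30.1 normalised counts in these 6 libraries (0.77, 95% interval -0.27 to 1.82), and SC5D (0.54, 95% interval 0.02 to 1.07). In PMVK a 2-fold difference lay outside the interval, and in CYP51A1 it did not.

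**Figure D2:**
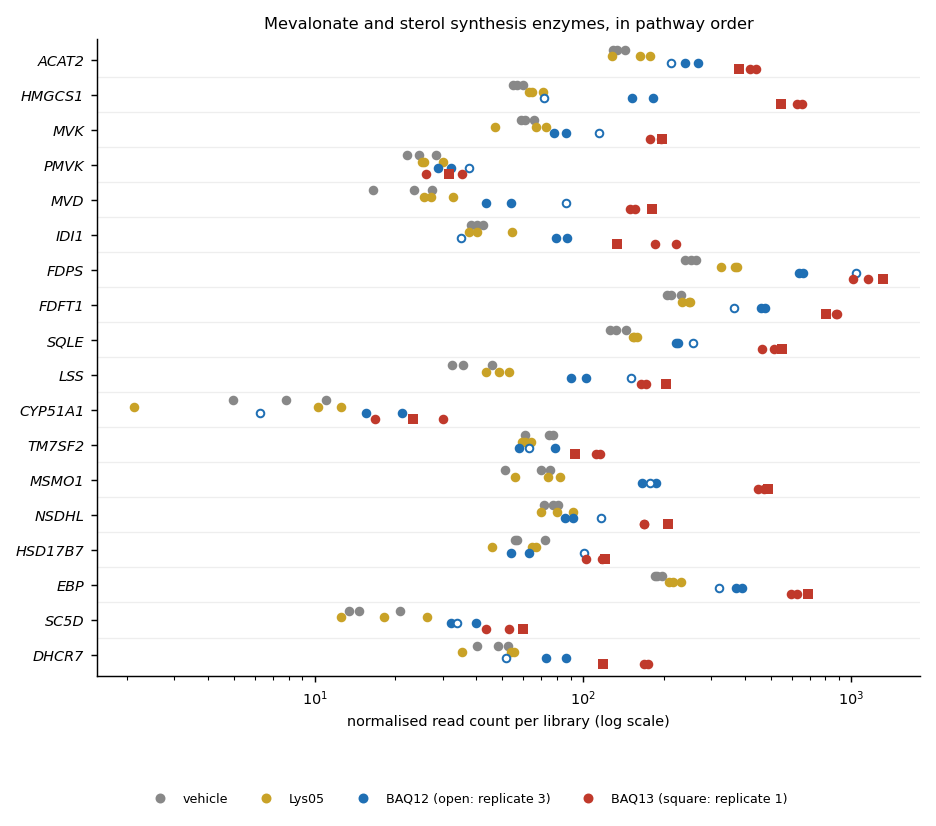
Normalised read count (log scale) of 18 of the mevalonate and sterol synthesis enzymes in each library with vehicle (grey), Lys05 (ochre), BAQ12 (blue, replicate 3 open) and BAQ13 (red, replicate 1 square), ordered along the pathway. The BAQ13 libraries lie to the right of all BAQ12 libraries in most rows, as for HMGCS1 at 545 to 657 against 71.6 to 183, but not in PMVK, FDPS and CYP51A1.

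Both NPs were above vehicle in this pathway, to different extents. The median difference from vehicle over the 20 enzymes was 0.76 with BAQ12 and 1.68 with BAQ13 with all libraries, and 0.95 and 1.68 without BAQ12 replicate 3. In single libraries the median stood 0.95, 0.95 and 0.68 above the vehicle mean in BAQ12 replicates 1 to 3, and 1.69, 1.87 and 1.73 above it in the BAQ13 libraries. With all libraries 10 enzymes passed as higher than vehicle with BAQ12 and 18 with BAQ13, where 0.572% and 3.58% of all genes tested did. Without BAQ12 replicate 3, 13 enzymes passed as higher than vehicle with BAQ12 and 19 with BAQ13, where 0.743% and 7.26% of all genes did, and the comparisons share the vehicle libraries. BAQ12 replicate 3 was mostly on the BAQ12 side here, being nearer to BAQ12 replicates 1 and 2 than to BAQ13 in 16 of the 20 enzymes (80%).

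As these genes moved together, the RefSeq promoter windows (GRCh38.p14, the 250 bases before each annotated start) were searched on both strands for CCAAT, the box bound by NF-Y, a factor known to work beside SREBP2, and for TCACNCCAC, the letters of a classical sterol regulatory element. Of the 20 enzymes, 15 matched a window. CCAAT was found in 15 of their 20 windows (75.0%), where 32.0% of all 35116 windows hold it. TCACNCCAC was found in 0 of these 20 windows and in 0.88% of all windows. CCAAT was in 7 of 16 windows (43.75%) of the SREBP sensing and LDL uptake genes below, INSIG1 among them. In the fatty acid synthesis genes below it was in 13 of 25 windows (52.0%). TCACNCCAC was in 1 window of each of these lists. The windows of 4 genes with large differences, the enzymes HMGCS1, MVD and MSMO1 and the SREBP anchor INSIG1, were chosen after their values were seen and are shown because they carry the boxes, with each box in capitals (ATTGG is the box on the other strand), 5′ to 3′ along the gene, and cut to a stretch free of annotated exons.
HMGCS1, chr5:43313513-43313662, minus strand: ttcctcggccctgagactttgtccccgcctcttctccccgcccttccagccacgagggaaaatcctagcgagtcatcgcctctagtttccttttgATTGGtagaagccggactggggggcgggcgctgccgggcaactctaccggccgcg
MVD, chr16:88663162-88663297, minus strand: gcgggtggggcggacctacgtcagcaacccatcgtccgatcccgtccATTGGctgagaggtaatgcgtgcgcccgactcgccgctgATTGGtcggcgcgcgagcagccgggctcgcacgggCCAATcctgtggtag
MSMO1, chr4:165327419-165327622, plus strand: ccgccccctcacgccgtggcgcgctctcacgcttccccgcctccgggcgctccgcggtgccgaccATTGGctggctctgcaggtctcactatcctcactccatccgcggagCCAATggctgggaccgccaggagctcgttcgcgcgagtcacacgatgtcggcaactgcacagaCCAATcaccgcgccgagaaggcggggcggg
INSIG1, chr7:155297628-155297775, plus strand: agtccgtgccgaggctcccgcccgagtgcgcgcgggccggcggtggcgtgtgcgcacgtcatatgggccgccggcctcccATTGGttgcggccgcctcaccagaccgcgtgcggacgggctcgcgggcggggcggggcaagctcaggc
The MVD and MSMO1 stretches hold 3 boxes each, and those of HMGCS1 and INSIG1 shown here hold 1 each. HMGCS1 has another window, not shown, whose stretch free of exons (chr5:43313225-43313355) holds 0 boxes. Such a match is a description of the letters and says nothing about binding in these cells.

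Around the pathway, the sensing and uptake genes differed in a few members. Of 14 listed genes of SREBP sensing and LDL uptake, 12 were tested. With all libraries 2 were higher and 0 lower (median 0.15), and without BAQ12 replicate 3 there were 3 and 0 (median 0.06). Of all genes tested, 0.505% and 1.71% were higher in these fits. INSIG1, the sterol-regulated anchor of SREBP, had 221, 188 and 157 normalised counts with BAQ12 and 467, 541 and 602 with BAQ13, a difference by limma of 1.51 (standard error 0.13, adjusted p = 5.61e-06). NPC2, which carries cholesterol inside the lysosome, passed only without BAQ12 replicate 3 (0.47, adjusted p = 0.0157), and lost the call when a second BAQ12 library was also left out (adjusted p = 0.14 to 0.177). The factor genes themselves did not pass: SREBF2 differed by 0.22 (95% interval -0.03 to 0.46) and SREBF1 by -0.28 (95% interval -0.65 to 0.09). Both were named after their values were seen. Of the liver X receptor targets, which sterol excess is known to raise, 6 of 10 were tested. Without BAQ12 replicate 3, in which 1.46% of all genes tested were lower, 1 of the 6 was lower, ABCA1. Its counts were close to the limit of 3 reads (7.34, 8.50 and 3.77 with BAQ12, 1.87, 1.82 and 3.35 with BAQ13; difference -1.44, adjusted p = 0.0443), and the call was lost in 4 of 5 cases when another library was dropped. The median over the 6 was -0.57 (-0.52 with all libraries, in which 0 passed).

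Part of the fatty acid synthesis genes were higher with BAQ13 as well. Of 16 listed, 15 were tested, of which 5 were higher and 0 lower with all libraries (0.505% of all genes tested were higher) and 6 and 0 without BAQ12 replicate 3 (1.71%), with a median of 0.33 in both fits. FASN, the fatty acid synthase, had 915, 973 and 1122 normalised counts with BAQ12 and 1794, 1634 and 1696 with BAQ13, a difference by limma of 0.77 (standard error 0.08, adjusted p = 4.05e-05). ACSS2, which makes acetyl-CoA from acetate, had 62.4, 57.0 and 67.8 with BAQ12 and 183, 159 and 161 with BAQ13, a difference of 1.41 (standard error 0.21, adjusted p = 0.00192). ELOVL6, which extends palmitate, had 54.1, 53.6 and 44.0 with BAQ12 and 115, 113 and 115 with BAQ13 (difference 1.17, adjusted p = 0.00593). None of these 3 genes had overlapping groups, where 6.02% of all genes tested had every BAQ13 library above every BAQ12 library. ACLY, the citrate lyase (0.84, adjusted p = 0.00603), and SCD, the stearoyl desaturase (0.46, adjusted p = 0.00212), also passed, the former not without BAQ13 replicate 2 or 3 (adjusted p = 0.0551 to 0.0569), and ACSL4 passed only without BAQ12 replicate 3 (0.41). In all 6 genes that passed in the second fit, BAQ12 replicate 3 was nearer to BAQ12 replicates 1 and 2 than to BAQ13.

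In the autophagy list, of which 45 of 50 genes were tested, 3 were higher with all libraries and 4 without BAQ12 replicate 3, beside 0.505% and 1.71% of all genes tested, and 0 were lower. The median of the list was 0.05 and 0.11. OPTN, the autophagy receptor optineurin, had 221, 204 and 221 normalised counts with BAQ12 and 370.5, 333 and 315 with BAQ13, a difference by limma of 0.65 (standard error 0.11, adjusted p = 0.00557). SQSTM1, the receptor p62 (ENSG00000161011; chromosome 5, 179806398 to 179838078), had 399, 430.1 and 578 with BAQ12 and 720.4, 659.9 and 709.9 with BAQ13, a difference of 0.59 (standard error 0.11, adjusted p = 0.0157) with all libraries and 0.75 (adjusted p = 2.32e-06) without BAQ12 replicate 3. Its groups did not overlap, but BAQ12 replicate 3 stood nearest to BAQ13, and leaving out any of the other 5 libraries from the first fit gave adjusted p of 0.0533 to 0.0961. WIPI1, a scaffold of early autophagosomes, differed by 0.91 (adjusted p = 0.03) and lost the call in 4 of 6 such fits (BAQ12 replicate 2 and each BAQ13 library; adjusted p = 0.0856 to 0.157). The Rag GTPase gene RRAGD, which acts in nutrient sensing at the lysosome, had 183, 185 and 244 with BAQ12 and 328, 265 and 269 with BAQ13 and passed without BAQ12 replicate 3 (0.64, standard error 0.11, adjusted p = 0.000853), also when any further library was left out. MAP1LC3B, whose product marks autophagosomes, did not pass in either fit (0.45, 95% interval 0.11 to 0.78).

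Few lysosomal genes passed between the NPs, and few of all genes tested did (0.562% with all libraries and 3.16% without BAQ12 replicate 3). Counts of 0 in the lists that follow, and of 1 among the hydrolases or the membrane proteins, are close to this background. Among 17 V-ATPase subunit genes tested, which encode the proton pump of the lysosome, 0 passed by limma in either fit, with medians of 0.17 and 0.21. The difference was nonetheless above 0 in 15 of the 17 V-ATPase genes, 10 of 12 ion channel genes and 20 of 23 lysosomal membrane genes with all libraries (50.6% of all genes tested). Without BAQ12 replicate 3 it was above 0 in 13, 10 and 16 (49.9%). The cathepsins and hydrolases leaned less, with 6 of 11 cathepsin genes above 0 in both fits and 23 and 21 of 35 hydrolase genes. Against vehicle with all libraries, 0 V-ATPase genes passed with BAQ12 and 4 with BAQ13, and 1 and 5 membrane genes, all of them higher (0.572% and 3.58% of all genes tested). Hydrolase genes passed as higher in 1 and 4 cases and ion channel genes in 0 and 1. Of the cathepsin genes 0 passed with BAQ12, and with BAQ13 2 were higher and 2 lower (2.19% of all genes tested were lower). The V-ATPase gene with the lowest p between the NPs, ATP6V1G1, had 439, 449.7 and 379 normalised counts with BAQ12 and 522, 538 and 611 with BAQ13 (difference 0.32, 95% interval 0.13 to 0.51, adjusted p = 0.0556, without BAQ12 replicate 3). Among 12 endolysosomal ion channel genes tested 0 passed, with medians of 0.24 and 0.35. The lowest p was that of the calcium channel TPCN1 (0.57, adjusted p = 0.246 by limma, without BAQ12 replicate 3). Of 11 cathepsin genes tested, CTSC passed as lower in both fits. This gene (ENSG00000109861; chromosome 11, 88293592 to 88337787) encodes cathepsin C, a dipeptidyl peptidase, and had 2504, 2542 and 2034 with BAQ12, 1632, 1726 and 1664 with BAQ13 and 2579, 2577 and 2625 with vehicle. BAQ12 replicates 1 and 2 thus lay near vehicle and every BAQ13 library below all others, with a difference of -0.49 (standard error 0.08, adjusted p = 0.00557). CTSD, the aspartic protease cathepsin D, passed as higher only without BAQ12 replicate 3 (0.41, adjusted p = 0.0449), and not when BAQ12 replicate 1 or 2 or BAQ13 replicate 2 was also left out (adjusted p = 0.144 to 0.287). CTSB did not pass (-0.26, 95% interval -0.46 to -0.07), although its groups did not overlap. In the lists of lysosomal hydrolases (35 tested) and lysosomal membrane proteins (23 tested), 0 genes passed with all libraries and 1 in each was higher without BAQ12 replicate 3, SUMF1 (0.73), which activates sulfatases, and SLC17A5 (0.45), which exports sialic acid. With another library dropped, SUMF1 kept its call in 1 of 5 cases and SLC17A5 in 0. The sialidase gene NEU1 differed by 0.71 (95% interval 0.31 to 1.11, adjusted p = 0.144), LAMP1 by 0.11 (95% interval -0.14 to 0.36) and LAMP2 by 0.28 (95% interval 0.12 to 0.45), and none of them passed in either fit. A 2-fold difference lay outside the intervals of LAMP1 and LAMP2 and inside that of NEU1.

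Of 25 apoptosis genes of the BCL2 family found, 17 were tested and 0 passed by limma in either fit, with medians of 0.13. As 0.562% and 3.16% of all genes tested passed, a count of 0 among 17 is close to the background. BAX had 55.0, 62.9 and 159.5 normalised counts with BAQ12 and 105, 75.6 and 63.7 with BAQ13. BAQ12 replicate 3 was the highest of the 6, and the difference was -0.05 (95% interval -0.64 to 0.55) with it and 0.43 (95% interval 0.06 to 0.80) without it. BBC3 (PUMA) had 664, 629 and 191 with BAQ12 and 635, 873 and 1017 with BAQ13, where the same library was the lowest, with differences of 0.94 and 0.35 (95% interval 0.11 to 0.60). BBC3 passed with library weights (adjusted p = 0.00145 by limma) and without BAQ12 replicate 3 and BAQ13 replicate 1 together (adjusted p = 2.01e-05), and did not pass in the other alternatives run. BAK1, BAD and BCL2L11 (BIM) differed by 0.23, 0.45 and 0.18, with 95% intervals of -0.28 to 0.73, -0.12 to 1.01 and -0.15 to 0.52. In the fit with all libraries a 2-fold difference lay inside the interval of BBC3 and, narrowly, of BAD, and outside those of BAX, BAK1 and BCL2L11.

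Stress response genes were higher with BAQ13 in part. Of 34 tested targets of ATF4, the factor of the integrated stress response, 2 were higher with all libraries and 6 without BAQ12 replicate 3, where 0.505% and 1.71% of all genes tested were, with 0 lower and medians of 0.23 and 0.22. AARS, the alanyl-tRNA synthetase, had 581, 685 and 669 normalised counts with BAQ12 and 915, 912 and 922 with BAQ13, a difference by limma of 0.51 (standard error 0.07, adjusted p = 0.00164). GDF15, a secreted stress cytokine, had 64.2, 70.6 and 55.3 with BAQ12 and 118, 118 and 98.1 with BAQ13, a difference of 0.80 (adjusted p = 0.0224), which did not pass without BAQ12 replicate 1 or BAQ13 replicate 1 or 2 (adjusted p = 0.0593 to 0.152). In both genes BAQ12 replicate 3 lay on the BAQ12 side, below every BAQ13 library. DDIT3 (CHOP) and WARS passed only without that library (0.70 and 0.64), and in DDIT3 it lay inside the BAQ13 range (45.9, 45.1 and 74.1 with BAQ12, 105, 60.2 and 65.4 with BAQ13). DDIT3 lost its call when BAQ12 replicate 1 or 2 or BAQ13 replicate 1 was dropped as well (adjusted p = 0.226 to 0.268). Of 26 tested NRF2 and oxidative stress genes, 1 was higher with all libraries, PGD of the pentose phosphate pathway (0.71, adjusted p = 0.0276), and 6 without BAQ12 replicate 3, against the same background. PGD lost its call without BAQ12 replicate 2 or BAQ13 replicate 2 or 3 (adjusted p = 0.11 to 0.167 by limma). The haem oxygenase gene HMOX1 had 67.0, 82.5 and 181 with BAQ12 and 222, 164 and 127 with BAQ13, so that BAQ12 replicate 3 was above 2 of the 3 BAQ13 libraries. Its difference was 0.73 (adjusted p = 0.448) with that library and 1.16 (adjusted p = 0.000542) without it. In FTL, the ferritin light chain gene, that library was above all of BAQ13 (5442, 5952 and 8933 with BAQ12, 8704, 7167 and 6512 with BAQ13), and the difference without it was 0.38. HMOX1, FTL and WARS also lost their calls when BAQ12 replicate 1 was left out in addition (adjusted p = 0.066, 0.241 and 0.193).

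Mitochondrially encoded mRNAs were lower than vehicle with both NPs, and less so with BAQ13 than with BAQ12 replicates 1 and 2. All 12 heavy-strand mRNAs were tested. Their median difference from vehicle was -1.71 with BAQ12 and -1.38 with BAQ13 with all libraries, and -1.86 and -1.38 without BAQ12 replicate 3. In single libraries the median stood at -1.90, -1.82 and -1.41 in BAQ12 replicates 1 to 3 and at -1.30, -1.44 and -1.42 in the BAQ13 libraries, so that BAQ12 replicate 3 lay within the BAQ13 range. Without that library all 12 passed as lower than vehicle with each NP, where 0.562% and 6.47% of all genes did. With all libraries all 12 passed as lower too, against 0.41% and 2.19%. Between the NPs, 2 were higher with BAQ13 with all libraries (MT-ATP6 and MT-ND3, median of the list 0.31) and 10 without BAQ12 replicate 3 (median 0.43), with 0 lower in both fits. Of all genes tested, 0.505% and 1.71% passed as higher in these fits. MT-ATP6, a subunit of ATP synthase (ENSG00000198899; mitochondrial genome, 8527 to 9207), had 3477, 3768 and 4688 normalised counts with BAQ12 and 5557, 5305 and 5993 with BAQ13, beside 14683, 14288 and 13967 with vehicle. BAQ12 replicate 3 was the nearest of its group to BAQ13, and limma gave a difference of 0.51 (standard error 0.10, adjusted p = 0.0309) with it and 0.63 (standard error 0.08, adjusted p = 1.13e-05) without it. The first of these calls was lost when any of the other 5 libraries was left out (adjusted p = 0.0834 to 0.167). MT-ND3, of respiratory complex I, had 2315, 2407 and 2143 with BAQ12 and 2869, 3063 and 3435 with BAQ13 (difference 0.45, adjusted p = 0.017), and here replicate 3 was the lowest. MT-CYB, MT-ND2 and MT-ND4L passed only without BAQ12 replicate 3 (0.49, 0.45 and 0.47), and in 9 of the 10 members that passed there this library lay nearer to BAQ13. It also lay nearer to BAQ13 in 235 of all 332 genes that passed in that fit and in 6636 of the 10495 tested. MT-CYB and MT-ND2 did not pass when BAQ12 replicate 1 was left out too (adjusted p = 0.106 and 0.0639), whereas MT-ND4L passed in every such fit. MTATP6P1, a nuclear copy of the MT-ATP6 region named after its values were seen, had 69.7, 81.6 and 81.6 with BAQ12 and 131, 150.4 and 153 with BAQ13 (difference 0.89, adjusted p = 0.000653). Since the copies are nearly identical, how the counting divided their reads is uncertain.

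**Figure D3:**
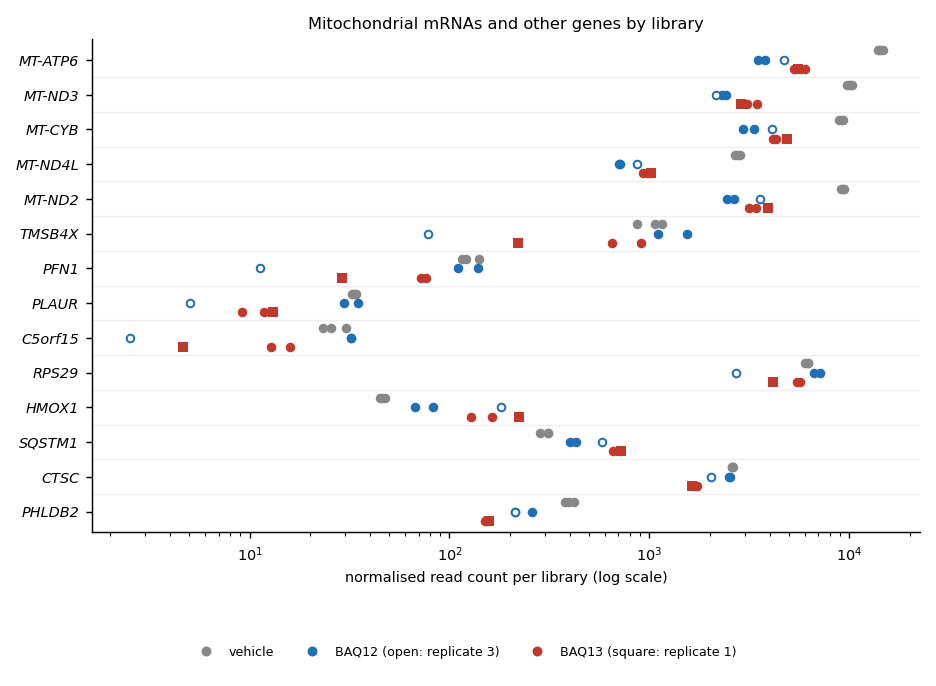
Normalised read count (log scale) of mitochondrial mRNAs and of 9 other genes in each vehicle (grey), BAQ12 (blue, replicate 3 open) and BAQ13 (red, replicate 1 square) library. In TMSB4X, PFN1, PLAUR, C5orf15 and RPS29 the open symbol lies below every BAQ13 library, and in CTSC and PHLDB2 all BAQ12 libraries lie above all BAQ13 libraries.

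Outside these groups, the genes with the largest differences that passed with all libraries were BIRC3 and SLC2A6. BIRC3 (ENSG00000023445; chromosome 11, 102317450 to 102339403), an inhibitor of apoptosis that NF-kB is known to raise, had 35.8, 34.9 and 33.9 normalised counts with BAQ12 and 99.8, 111 and 106 with BAQ13, a difference by limma of 1.57 (standard error 0.18, adjusted p = 0.000133). SLC2A6, a sugar transporter of lysosomal membranes, had 42.2, 33.2 and 31.4 with BAQ12 and 105, 101 and 118 with BAQ13 (difference 1.58, standard error 0.21, adjusted p = 0.000616). In both genes the 3 BAQ12 libraries lay close together and far below BAQ13. A further 2 genes were chosen after their values were seen. UCA1, a long noncoding RNA (ENSG00000214049; chromosome 19, 15828206 to 15836326), had 352, 361 and 348 with BAQ12 and 748, 713 and 780.3 with BAQ13, a difference of 1.08 (standard error 0.09, adjusted p = 5.61e-06). ID2, an inhibitor of basic helix-loop-helix factors, had 216, 220.2 and 139 with BAQ12 and 396, 481 and 544 with BAQ13 (difference 1.32, adjusted p = 0.000344). The transcription factor gene KLF6 differed by 0.43 (adjusted p = 0.025) and lost its call without BAQ12 replicate 1 or BAQ13 replicate 1 or 2 (adjusted p = 0.0934 to 0.167).

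The remaining large increases passed only without BAQ12 replicate 3 and concerned genes of low counts. PLA2G3, a secreted phospholipase, had 3.67, 2.55 and 5.02 normalised counts with BAQ12 and 21.5, 21.9 and 11.7 with BAQ13 (difference 2.20, 95% interval 0.95 to 3.45, adjusted p = 0.0443 by limma). Its groups did not overlap with all libraries either (2.01, adjusted p = 0.117). The GTP-binding protein gene GTPBP2 had 2.75, 4.25 and 16.3 with BAQ12 and 15.9, 16.4 and 10.1 with BAQ13, where replicate 3 of BAQ12 was near the top of the BAQ13 range, and its difference moved from 1.08 to 1.74 without it. OSGIN1, PC (pyruvate carboxylase), SYNE4 and ZSCAN2 differed by 1.51, 1.44, 1.43 and 1.42, and none of the 4 passed with all libraries. Of these 6 genes, PLA2G3, OSGIN1, SYNE4 and ZSCAN2 kept the call in 1 of 5 cases when another library was dropped, PC in 3 and GTPBP2 in 4.

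The 6 genes lower with BAQ13 in the first fit passed as lower in both, but 0 genes passed as lower by limma when only the 6 BAQ12 and BAQ13 libraries were fitted (adjusted p = 0.422 for both CTSC and PHLDB2). PHLDB2, a scaffold of cell adhesions at the cortex (ENSG00000144824; chromosome 3, 111732497 to 111976517), had 212, 258 and 214 normalised counts with BAQ12, 157, 153 and 150.0 with BAQ13 and 395, 418 and 377 with vehicle, a difference by limma of -0.56 (standard error 0.10, adjusted p = 0.00612). The 3 groups lay in separate ranges, vehicle highest and BAQ13 lowest, where 4.75% of all genes tested had every BAQ13 library below every BAQ12 library. COL5A2, a fibrillar collagen chain, had 906, 890.0 and 921 with BAQ12 and 703, 711 and 735 with BAQ13 (difference -0.34, adjusted p = 0.0153), and IGF2BP3, an RNA-binding protein, had 816, 900.2 and 832 with BAQ12 and 695, 623 and 663 with BAQ13 (-0.36, adjusted p = 0.0225). VEPH1 and the transcript RP5-943J3.2 differed by -0.64 and -0.92, and the sixth gene was CTSC, described above. In the fits that kept the other groups, CTSC and PHLDB2 passed whichever of the 6 libraries was left out, whereas COL5A2, IGF2BP3 and RP5-943J3.2 passed in 3 of the 6 cases and VEPH1 in 2, with the call lost for at least 1 of them on leaving out each library other than BAQ12 replicate 3 (adjusted p = 0.0527 to 0.188).

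**Figure D4:**
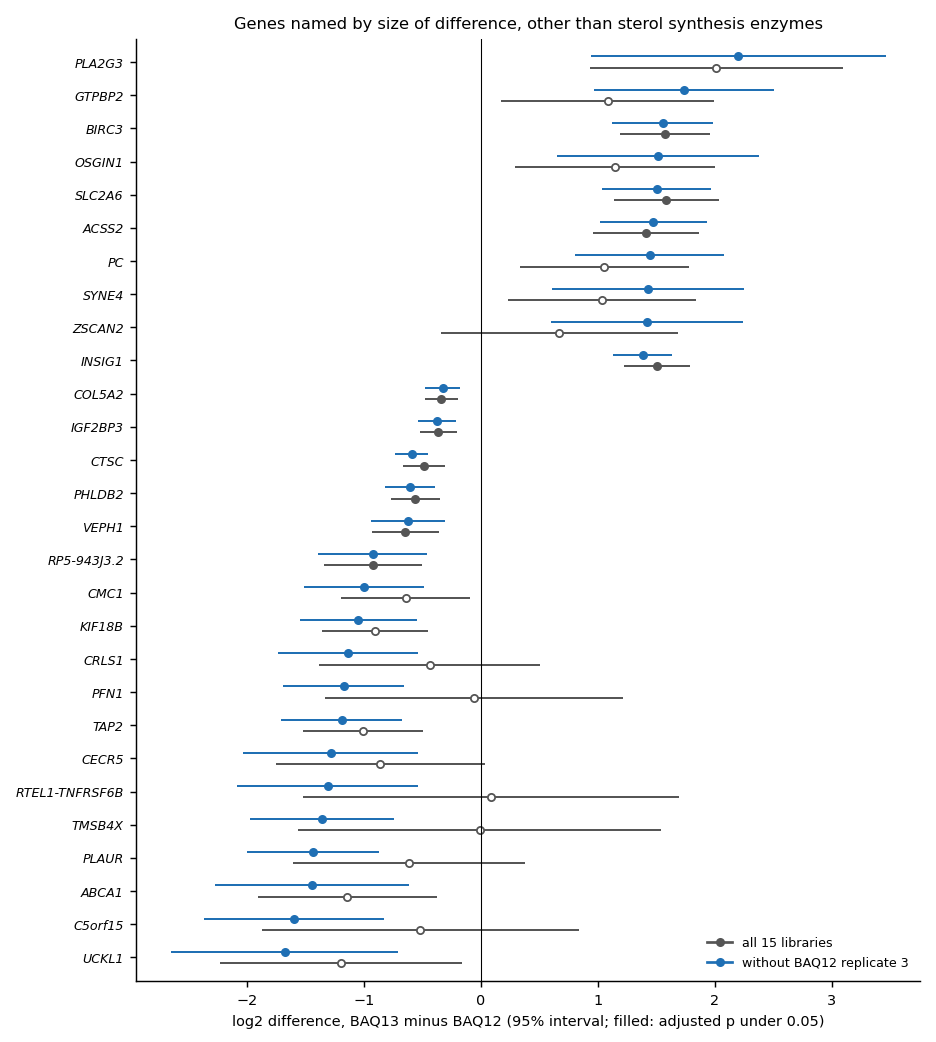
Log2 difference, BAQ13 minus BAQ12, with its 95% interval for the genes named by size of difference (sterol enzymes excepted), with all 15 libraries (grey) and without BAQ12 replicate 3 (blue); filled symbols have an adjusted p under 0.05. BIRC3, SLC2A6, ACSS2 and INSIG1 are filled in both fits, and TMSB4X moves from -0.01 to -1.36.

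Of the 12 largest decreases that passed without BAQ12 replicate 3, ABCA1 among them, 0 passed by limma with all libraries. TMSB4X, an actin-sequestering thymosin, had 1545, 1105 and 77.9 normalised counts with BAQ12, 221, 649 and 912 with BAQ13 and 871, 1067 and 1156 with vehicle. BAQ12 replicate 3 was far below all others and BAQ13 replicate 1 was next, and the difference was -0.01 (adjusted p = 0.998) with BAQ12 replicate 3 and -1.36 (standard error 0.30, adjusted p = 0.00842 by limma) without it. The actin-binding profilin gene PFN1 had the same order (139, 109.7 and 11.3 with BAQ12, 28.9, 76.6 and 72.1 with BAQ13; -1.17), as did C5orf15 (32.1, 32.3 and 2.51 with BAQ12 and 4.67, 12.8 and 15.9 with BAQ13; -1.60). PLAUR, the urokinase receptor, had 34.9, 29.8 and 5.02 with BAQ12 and 13.1, 11.8 and 9.22 with BAQ13 (-1.44, adjusted p = 0.00232). In all 4 genes BAQ12 replicate 3 lay on the far side of BAQ13. TAP2, an antigen peptide transporter, and KIF18B, a mitotic kinesin, were different in that all BAQ12 libraries were above all BAQ13 libraries (34.9, 43.4 and 26.4 against 11.2, 23.7 and 16.8 and 36.7, 31.5 and 25.1 against 16.8, 13.7 and 17.6), with differences of -1.01 and -0.91 with all libraries (adjusted p = 0.0806 and 0.0723) and of -1.19 and -1.05 without replicate 3. UCKL1, CECR5, CRLS1, CMC1 and RTEL1-TNFRSF6B completed the set, with the largest difference in UCKL1 (-1.68). RTEL1-TNFRSF6B is a read-through of neighbouring genes and shares their sequence, so its reads are uncertain. When BAQ12 replicate 1 was left out in addition, 0 of the 12 passed by limma, with an adjusted p of 0.251, 0.215, 0.104 and 0.177 for TMSB4X, PFN1, PLAUR and C5orf15.

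Growth-related lists held calls only without BAQ12 replicate 3. Of 46 tested genes of DNA replication and S phase 3 were lower and 0 higher (median -0.15), of 47 genes of mitosis 3 and 0 (median -0.16), and of 76 nuclear-encoded respiratory chain subunits 5 and 0 (median -0.06), where 1.46% of all genes tested were lower. With all libraries 0 passed by limma in each of the 3 lists (medians -0.10, -0.08 and -0.04). The difference was above 0 in 13 of the 46, 12 of the 47 and 28 of the 76 genes there (50.6% of all genes tested). Without BAQ12 replicate 3 it was above 0 in 12, 14 and 25 (49.9%). PCNA, the sliding clamp, had 128, 145 and 67.8 normalised counts with BAQ12, 89.6, 90.2 and 99.7 with BAQ13 and 180.2, 197 and 200.1 with vehicle, and differed by -0.55 (adjusted p = 0.00734). The replicative helicase subunit MCM2 had 47.7, 51.0 and 20.1 with BAQ12 and 24.3, 22.8 and 36.9 with BAQ13 (-0.83, adjusted p = 0.0253). In both genes BAQ12 replicate 3 was the lowest of the 6 libraries. PCNA lost its call without BAQ12 replicate 2 (adjusted p = 0.163), and MCM2 kept its own in 1 of 5 cases when another library was dropped (otherwise adjusted p = 0.0577 to 0.199). Of the cytosolic ribosomal protein genes (80 tested) 4 were higher and 4 lower without BAQ12 replicate 3, and 0 passed with all libraries. Of all genes tested, 1.71% were higher and 1.46% lower without that library. RPS29, one of the 4 lower genes, again had BAQ12 replicate 3 below all others (7132, 6675 and 2704 with BAQ12, 4134, 5453 and 5631 with BAQ13).

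The lists not yet described had at most 2 calls in either direction. Of all genes tested, 0.505% passed as higher and 0.0572% as lower with all libraries, and 1.71% and 1.46% without BAQ12 replicate 3. A count of 1 among 28 hypoxia targets or 32 p53 targets, or of 0 in a list, is close to this background. With all libraries the calls were BIRC3 among 13 NF-kB targets and KLF6 among 20 immediate early genes. Without BAQ12 replicate 3 there were BIRC3 and RELB higher and PLAUR lower among the former, KLF6 and JUND higher and CYR61 lower among the latter, and single genes higher among 28 hypoxia targets (ALDOC, 1.27), 15 interferon-stimulated genes (IRF1, 0.99), and 32 p53 targets (SESN2, 0.52). The iron list (13 tested) shares FTL and HMOX1 with the NRF2 list. Among 9 metallothionein and zinc transporter genes SLC39A10 was higher (0.48, adjusted p = 4.44e-05 by limma) and MT1E lower (-0.38), among 17 cytosolic heat shock genes HSPE1 was lower (-0.57), and among 6 epithelial markers KRT8 was lower (-0.36). Of 23 endoplasmic reticulum chaperone genes, 3 mesenchymal markers and 3 fibroblast and endothelial markers, 0 passed by limma in either fit, and of the acinar and leukocyte markers 0 had counts enough to be tested. SLC39A10 still passed whichever of the 5 further libraries was left out. RELB, PLAUR, JUND, CYR61, ALDOC, IRF1, SESN2, MT1E, HSPE1 and KRT8 all lost their calls without BAQ12 replicate 1 (adjusted p up to 0.354 over the fits in which they were lost).

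**Figure D5:**
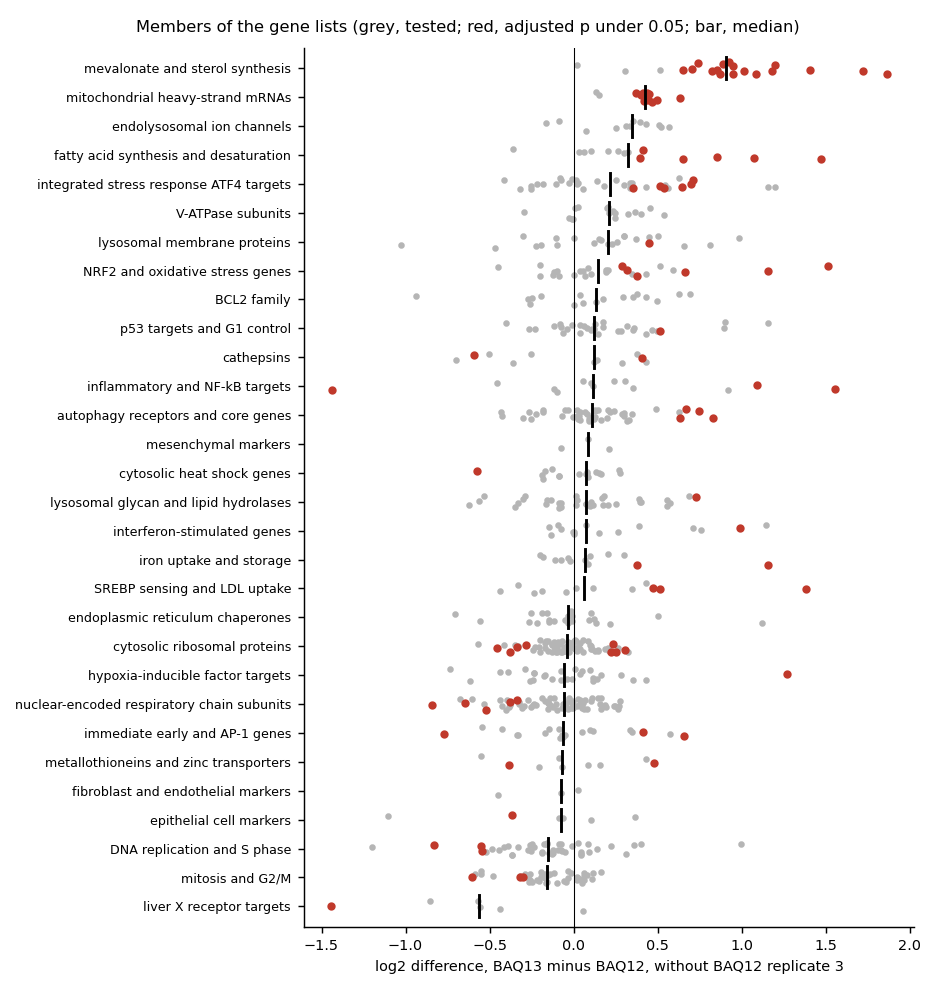
Log2 difference, BAQ13 minus BAQ12, without BAQ12 replicate 3, for each tested member of the gene lists (grey dots; red where the adjusted p is under 0.05) with the median of each list (black bar), ordered by median. The sterol synthesis list has a median of 0.91 with 17 of 20 members in red, and the next list, of mitochondrial heavy-strand mRNAs, has a median of 0.43.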

How the data were processed

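RNA of MIA PaCa-2 cells was measured in 15 libraries, 3 in each of 5 groups taken from the agent labels. The authors deposited a normalised gene table, here treated as signal: gene reads divided by a size factor of each library. The labels name a QuantSeq 3′ kit and the methods a directional paired-end kit, so read counts were not compared between genes. The submitters' processing notes name STAR, HTSeq and DESeq2 with GRCh38, and versions were not given in the sources used here. The deposited values gave whole reads for every non-zero value (tolerance 0.02), so reads per library, 1586566 to 2500551, could be recovered. A limit of 3 reads per library is used for genes near 0 and covers counting error only.

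Genes were kept by filterByExpr (edgeR 4.0.16; at least 10 reads, total at least 15) on the recovered reads, leaving 10495. limma 3.58.1 (R 4.3.3; log2(value + 1), trended empirical Bayes, Benjamini-Hochberg adjustment over all genes tested) was fitted to all 15 libraries, and again without BAQ12 replicate 3. edgeR's quasi-likelihood test and DESeq2 1.42.0 on the recovered reads were alternatives, beside other pseudocounts, filters, scalings, library weights, a GC correction and leaving out libraries. The procedure was tested on simulated data. Gene positions are from GENCODE release 29 and promoters from RefSeq GRCh38.p14.

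The comparison and the 32 gene lists, compiled from general knowledge, were chosen with earlier results of these data known. Named genes were the 12 largest changes each way without BAQ12 replicate 3 and the 6 largest each way with all libraries, among genes that passed with non-overlapping groups; up to 4 passing members of each list, or otherwise the member with the lowest p; the genes of apoptosis, lysosomes and autophagy that the study's text names; and the 5 genes furthest above and below the other libraries in BAQ12 replicate 3. The remaining sterol and fatty acid enzymes, and genes said to be so, were named after their values were seen. Some members of the sterol lists enter the counts and medians but are not reported here by name.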

Additional observations from a re-analysis of the deposited data

How the results depend on the processing

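The sterol synthesis result kept its direction under every alternative run: the median of the list was 0.90 to 0.97 on leaving out single libraries from the fit with all libraries (10 to 17 members passing) and 0.85 to 0.95 without BAQ12 replicate 3 (13 to 17 members), and only a fit to the 6 BAQ12 and BAQ13 libraries lowered the passing members markedly, from 13 to 3. The counts of genes moved more. With all libraries, 59 genes passed, and 9 did in that fit of 6 libraries, 1801 with library weights, 32 to 332 on leaving out single libraries (32 without BAQ13 replicate 2, 34 without BAQ13 replicate 3, 332 without BAQ12 replicate 3) and 239 without BAQ12 replicate 3 and BAQ13 replicate 1, an alternative chosen after seeing the data, as was the GC correction (62). At 2-fold and an unadjusted p of 0.05 the 65 genes became 23 with a pseudocount of 5, 333 without a filter, 20 with at least 10 reads in every library, 169 with weights, 75 to 108 on leaving out single libraries and 106 with both libraries out. Without BAQ12 replicate 3, 332 genes passed, and 174 did by DESeq2, 123 without a filter, 59 in the fit restricted to BAQ12 and BAQ13, 1259 with weights, 53 to 825 on leaving out a further library (53 and 105 without BAQ12 replicate 1 and 2, 825 without BAQ13 replicate 3) and 59 with replicate 3 included. The 107 genes at 2-fold became 36 with a pseudocount of 5, 370 without a filter, 28 with at least 10 reads in every library, 172 with weights, 106 to 186 on leaving out a further library and 65 with replicate 3 included. Intervals within 2-fold numbered 14452 and 13275 without a filter, where more genes are tested. edgeR called 72 and 401 genes in the 2 fits. The cause of these changes was not tested. BAX turned from -0.05 to 0.27 with weights, 0.43 without BAQ12 replicate 3, 0.11 without BAQ13 replicate 3 (-0.33 to 0.43 over the fits that left out 1 library) and 0.23 with both libraries out, and RTEL1-TNFRSF6B and CYR61 turned to 0.084 and 0.037 with BAQ12 replicate 3 included.

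Same-numbered libraries did not deviate together (correlations of -0.49, 0.12 and -0.49), so the replicate block rests on a shared number only: with it 48 genes passed with all libraries and 273 without BAQ12 replicate 3, the sterol list had 12 and 17 passing members and medians of 0.92 and 0.91, and 66 and 120 genes reached 2-fold. With 3 libraries a group, low genes such as CYP51A1 were poorly bounded.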
